A study of Mus musculus with 12 samples.

Results

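T-cell anergy is a state in which a T cell that met its antigen without adequate costimulation stays alive but responds poorly to it. Calcium signals that reach the transcription factor NFAT without enough of its partner AP-1 switch on a set of inhibitors, among them ubiquitin ligases that tag receptor signaling proteins for removal and diacylglycerol kinases that consume the lipid messenger linking the T-cell receptor to Ras. Most of this work was done in CD4 T cells, in which high surface levels of folate receptor 4 and of the ectoenzyme CD73 mark anergic cells.

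The 9 genes described here were taken by name as an anergy-associated set from the 32285 genes of the count tables. They were Cblb, Itpkb, Dgka, Dgkz, Itch, Rnf128, Dtx1, Izumo1r and Nt5e, all 9 were found, and all 9 passed the filter on low counts. The cells were CD8 T cells of prediabetic female NOD/ShiLtJ mice, 10 to 15 wk old, a strain that develops autoimmune diabetes spontaneously. Cells positive for CD45.1 and CD8 and negative for other lineage markers were sorted with a Kd tetramer carrying NRP-V7, a mimotope of a peptide from the β-cell protein IGRP. Tetramer-binding cells of the islets (Islet IGRP+), islet cells that did not bind it (Islet IGRP-) and tetramer-binding cells of the spleen (Spleen IGRP+) were each sequenced in 2 rounds, and each round was 1 pool of 10 mice in which no cell can be traced to a mouse. No mouse was treated and no gene was altered in any group.

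The 6 single-cell RNA libraries listed 26818 cells, of which 24117 were kept. Rounds 1 and 2 held 6429 and 8932 Islet IGRP- cells, 1204 and 1598 Islet IGRP+ cells, and 3524 and 2430 Spleen IGRP+ cells, with median unique molecular identifier (UMI) counts per cell of 3793 to 4216.5 in the islet libraries and 2590 and 2764.5 in the spleen libraries. Cell barcodes shared by 2 libraries numbered 2 to 64. Of the kept cells, 99.7% had a UMI of at least 1 of 7 CD8 T cell genes, and the summed level of these genes was 4681 to 6269 CPM, the UMIs of a gene per 1000000 UMIs of the library, in every library. Among markers of other cells, Cd4 reached at most 0.173 CPM and Foxp3 at most 1.21 CPM. Not all such markers were low. Ikzf2, listed with CD4 and regulatory T cells, stood at 109 and 71.2 CPM in Islet IGRP-, 214 and 226 in Islet IGRP+ and 47.9 and 59.1 in Spleen IGRP+ libraries. Ighm, listed with B cells, stood at 13.7 to 66.1 CPM. Trgv2, listed with natural killer and gamma-delta T cells, stood at 58.0 to 273 CPM. Ctla4, which is listed with CD4 and regulatory T cells but is also made by activated CD8 T cells, stood at 257 to 476 CPM in the islet libraries and at 21.8 and 25.0 CPM in the spleen libraries. Exocrine pancreas genes summed to 43.2 to 324 CPM in the islet libraries and to 5.62 and 6.51 CPM in the spleen libraries, and their part in the results was not tested. Only 76 kept cells lacked all 7 CD8 T cell genes, and 19 of these had at least 1000 UMIs, too few to measure the level given by free RNA in cells that should lack the 9 genes. Exocrine cells, of which the study set aside a cluster from its islet data, were not removed here.

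Levels are given as CPM of the UMIs summed over all kept cells of a library. In such sums, fewer expressing cells and less RNA per expressing cell cannot be told apart. Shares of cells were also counted after every cell had been thinned at random to 1000 UMIs, which makes depth equal. At this depth the share of a sparse gene follows its level closely, so it does not separate fewer expressing cells from less RNA per cell either. The exact 95% binomial intervals of these shares cover counting error only. They reached at most 1.09 percentage points to either side in Islet IGRP-, 2.51 in Islet IGRP+ and 1.77 in Spleen IGRP+ libraries. The spleen cells were also enriched for CD8 T cells with magnetic beads and gated on CD44, a marker of antigen experience. This gate, tissue handling, depth and the upper limit on genes per cell all differed between islets and spleen, and their part in a difference between tissues cannot be told apart from the tissue itself.

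Counts were compared between groups with the quasi-likelihood test of edgeR over 11277 genes, with 2 libraries per group. Between Islet IGRP+ and Islet IGRP- cells, 1 of the 9 genes passed an adjusted p of 0.05, and this was Dtx1, which was lower. Of all genes tested in that comparison, 1.19% passed, 0.151% higher and 1.04% lower in Islet IGRP+. Between Islet IGRP+ and Spleen IGRP+ cells, 4 of 9 passed (Cblb and Izumo1r higher, Dtx1 and Dgka lower in the islets), against 26.6% of all genes, 13.7% higher and 12.9% lower. Between Islet IGRP- and Spleen IGRP+ cells, 3 of 9 passed (Cblb and Izumo1r higher, Dtx1 lower in the islets), against 22.4% of all genes, 12.2% higher and 10.2% lower. The 3 comparisons share libraries, so they are not independent of each other. With the round added as a block, which pairs the libraries of a pool, 3, 5 and 5 of the 9 passed, against 30.5%, 55.1% and 55.4% of all genes.

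**Figure D1:**
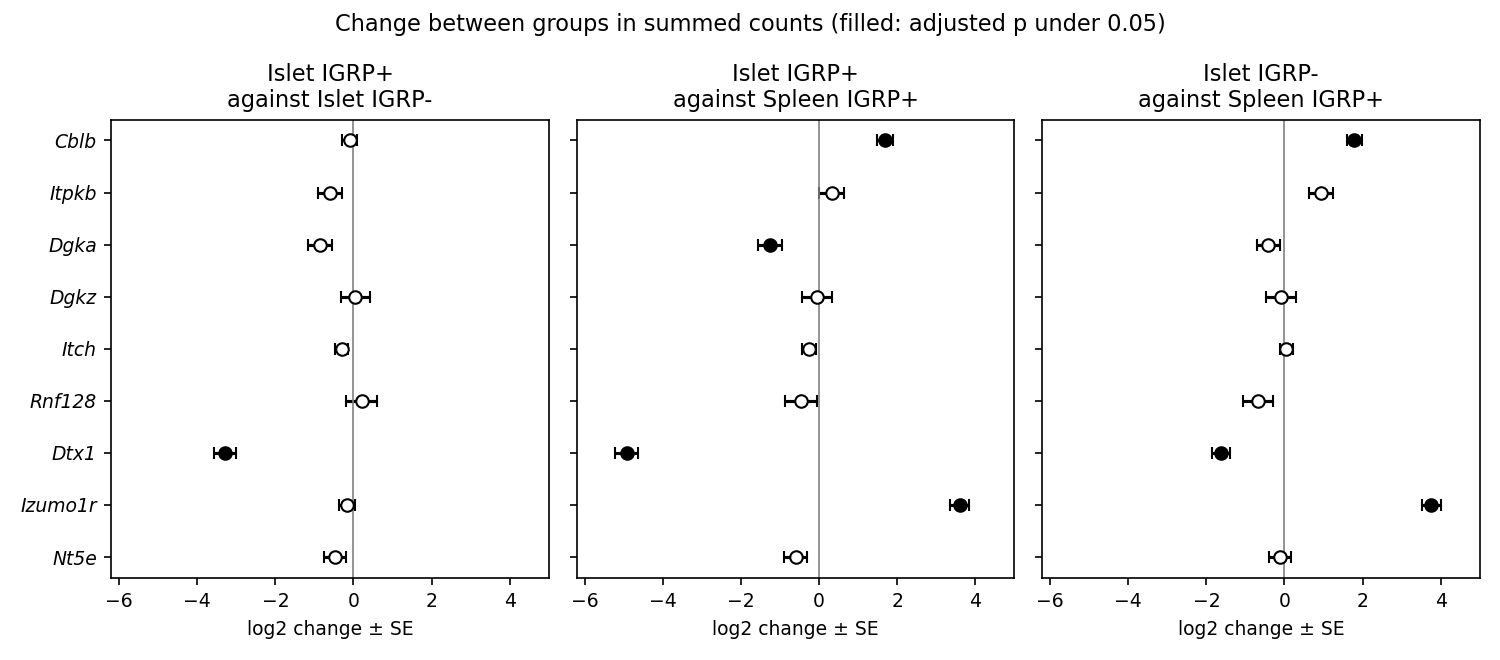
The log2 change in summed counts of each of the 9 genes (x axis) in the 3 comparisons, with its standard error as the bar; filled points had an edgeR adjusted p under 0.05. Dtx1 lay at -3.29, -4.92 and -1.63, while Cblb and Izumo1r lay to the right of 0 in both comparisons with the spleen and near 0 between the islet groups.

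Nearly all of the 9 genes were higher in Round 2 than in Round 1 of the same group, in 25 of 27 cases, with a median ratio of 1.44. The same held for most genes of at least 10 CPM, of which 69.2% to 76.9% were higher in Round 2, but with median ratios of only 1.11 to 1.18. Each group had 1 library of each round, so by design the spread within a group is the difference between rounds. The rounds were separate pools of mice, and the study also sequenced their RNA libraries with different kits and read lengths. The parts of pool and sequencing cannot be told apart. The main test compared the groups against this spread and did not take out the part that the groups share.

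Cblb encodes CBL-B, a ubiquitin ligase that raises the threshold for T-cell activation and whose loss lets T cells respond without CD28. The gene lies on the plus strand at chr16:52031225-52208048 (mm10). It was the most abundant of the 9 in islet cells, at 289 and 350.0 CPM in the Islet IGRP- libraries and 237 and 368 CPM in the Islet IGRP+ libraries. The spleen libraries held 95.2 and 102 CPM. Both islet groups thus lay above both spleen libraries and overlapped each other.

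Cblb was 3.23-fold higher in Islet IGRP+ than in Spleen IGRP+ cells (log2 change 1.69 ± 0.20 SE, edgeR adjusted p = 0.00466) and 3.46-fold higher in Islet IGRP- than in Spleen IGRP+ cells (1.79 ± 0.20, edgeR adjusted p = 0.00539). Without Round 2 of the spleen the second call was lost (edgeR adjusted p = 0.0529, log2 change 1.71). Between the islet groups the change was -0.10 ± 0.19 (edgeR adjusted p = 0.830). In thinned cells, Cblb was seen in 26.3% and 29.0% of Islet IGRP- cells, in 24.8% and 31.1% of Islet IGRP+ cells and in 8.57% and 9.52% of Spleen IGRP+ cells, so the difference between tissues was also there at equal depth. Among cells with a UMI of Pdcd1, which encodes the inhibitory receptor PD-1, the change between Islet IGRP+ and Spleen IGRP+ was again 1.69 (edgeR adjusted p = 0.00772), in a comparison chosen after seeing the data.

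**Figure D2:**
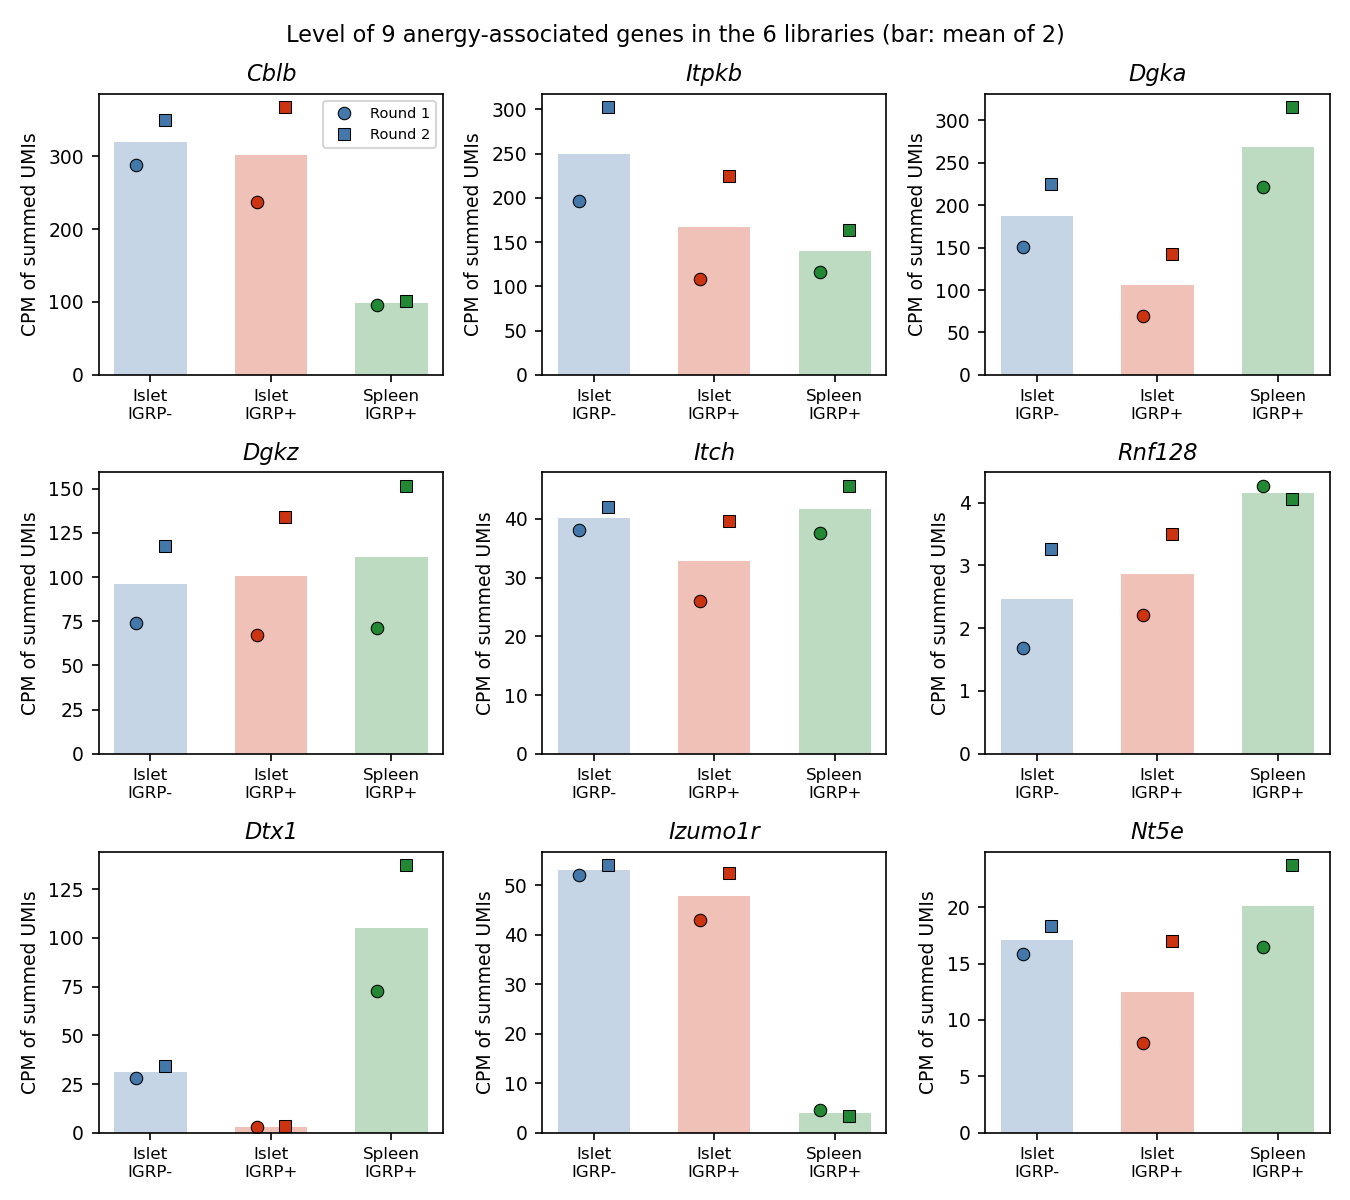
The level of each of the 9 genes in CPM of summed UMIs (y axis, from 0), with circles for Round 1, squares for Round 2 and bars for the mean of the 2 libraries. For Cblb and Izumo1r the 4 islet libraries lie above both spleen libraries, for Dtx1 the 2 Islet IGRP+ libraries lie at 2.72 and 3.63 CPM below all others, and for Dgkz the rounds differ more than the groups.

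The other classical ligases of this set varied less. Itch, a ligase of the NEDD4 family that degrades signaling proteins such as PLC-γ and JunB, stood at 38.2 and 41.9 CPM in Islet IGRP-, 26.0 and 39.6 in Islet IGRP+ and 37.6 and 45.6 in Spleen IGRP+ libraries. Its log2 changes lay between -0.31 and 0.05 in the 3 comparisons, and all groups overlapped. Rnf128, which encodes GRAIL, was barely detected, with 1.68 and 3.26 CPM in Islet IGRP-, 2.21 and 3.51 in Islet IGRP+ and 4.27 and 4.05 in Spleen IGRP+ libraries. It was seen in 0.189% to 0.464% of thinned cells. Both islet groups lay below both spleen libraries, but the log2 changes of -0.46 ± 0.41 and -0.68 ± 0.38 did not pass (edgeR adjusted p = 0.438 and 0.251).

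Dtx1 encodes Deltex 1, a ubiquitin ligase and a target of Notch and of NFAT that promotes anergy in CD4 T cells; the gene lies on the minus strand at chr5:120680202-120711927. It showed the widest range of the set. Spleen IGRP+ libraries held 72.6 and 137 CPM, Islet IGRP- libraries 28.2 and 34.0 CPM, and Islet IGRP+ libraries 2.72 and 3.63 CPM, which rested on 16 and 29 UMIs. No group overlapped another.

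In edgeR, Dtx1 was 9.79-fold lower in Islet IGRP+ than in Islet IGRP- cells (log2 change -3.29 ± 0.29 SE, adjusted p = 0.0154), 30.2-fold lower than in Spleen IGRP+ cells (-4.92 ± 0.30, adjusted p = 0.00132), and 3.09-fold lower in Islet IGRP- than in Spleen IGRP+ cells (-1.63 ± 0.24, adjusted p = 0.00966). Leaving out a library ended 2 of these calls while the changes stayed of like size. Between the islet groups the edgeR adjusted p became 0.0644 and 0.0678 without Round 1 or 2 of Islet IGRP-, and 0.107 and 0.109 without Round 1 or 2 of Islet IGRP+, with log2 changes of -3.39 to -3.20. Between Islet IGRP- and Spleen IGRP+ it became 0.0583 and 0.0565 without Round 1 or 2 of Islet IGRP-. With the round as a block all 3 calls were kept (edgeR adjusted p = 2.84e-07, 1.004e-09 and 4.47e-07).

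The share of thinned cells with a Dtx1 UMI followed the same order. It was 6.92% (exact 95% interval 6.10 to 7.82) and 11.8% (10.5 to 13.1) in the spleen, 3.05% (2.64 to 3.50) and 3.53% (3.16 to 3.94) in Islet IGRP- and 0.509% (0.187 to 1.11) and 0.514% (0.222 to 1.01) in Islet IGRP+ cells. The intervals of the 3 groups did not overlap.

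Dtx1 in Islet IGRP- cells went with genes of less activated, recirculating cells. In cells with a UMI of Klf2, a transcription factor of quiescent T cells, Dtx1 was seen in 5.21% and 5.65%, against 1.95% and 2.19% of cells without. In cells with a UMI of Pdcd1 it was seen in 0.821% (interval 0.394 to 1.505) and 0.947% (0.518 to 1.58), against 3.58% and 4.05% of cells without. Among spleen cells this relation to Pdcd1 was not found, with Dtx1 in 9.59% (5.34 to 15.6) and 16.4% (10.2 to 24.4) of cells with a Pdcd1 UMI and in 6.81% and 11.5% of cells without. Klf2 was seen in 33.6% and 38.9% of Islet IGRP- cells, in 5.603% and 13.0% of Islet IGRP+ cells and in 48.8% and 70.0% of Spleen IGRP+ cells. In the spleen Dtx1 was seen in 7.35% and 11.4% of cells with Klf2 and in 6.51% and 12.5% of cells without, so the relation seen in Islet IGRP- cells was not found there.

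Because the groups differed in Pdcd1, Dtx1 was compared again among cells with a Pdcd1 UMI, a choice made after seeing the data. Between Islet IGRP+ and Islet IGRP- cells the log2 change was then -1.89 and did not pass (edgeR adjusted p = 0.155). Among these cells edgeR called 0 of the 10652 genes tested in this comparison, and 632 had an unadjusted p under 0.05. The same cells kept the difference from the spleen, at -4.76 for Islet IGRP+ (edgeR adjusted p = 0.00164) and -2.87 for Islet IGRP- cells (0.00418).

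The kinases of the set act on second messengers. Dgka and Dgkz encode the diacylglycerol kinases α and ζ, and Itpkb encodes inositol trisphosphate 3-kinase B, which makes an inositol phosphate needed for T-cell development and signaling. Dgka lies on the minus strand at chr10:128720134-128744855 and Dgkz on the minus strand at chr2:91932824-91975864. To show the DNA that the motif counts refer to, the stretches upstream of RefSeq starts (GRCm38.p6, the mm10 assembly, minus strand) that no annotated exon covers are given for Dgkz before both of its starts and for Dgka before its most upstream start, with matches to the EGR motif GNGGGNG or to the NFAT core GGAAAA on either strand in capitals.
Dgkz, chr2:91963658-91963813: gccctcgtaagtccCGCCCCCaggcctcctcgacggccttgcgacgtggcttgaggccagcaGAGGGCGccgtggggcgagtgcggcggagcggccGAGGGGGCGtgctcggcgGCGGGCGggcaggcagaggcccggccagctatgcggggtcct
Dgkz, chr2:91950428-91950598: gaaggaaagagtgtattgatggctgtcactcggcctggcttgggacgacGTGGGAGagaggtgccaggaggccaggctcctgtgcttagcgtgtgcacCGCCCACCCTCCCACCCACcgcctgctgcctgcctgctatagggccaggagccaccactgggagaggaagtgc
Dgka, chr10:128745085-128745334: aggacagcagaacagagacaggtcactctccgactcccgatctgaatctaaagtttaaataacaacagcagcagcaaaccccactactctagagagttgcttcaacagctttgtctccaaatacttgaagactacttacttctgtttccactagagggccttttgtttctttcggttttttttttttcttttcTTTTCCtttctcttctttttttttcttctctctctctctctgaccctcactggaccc

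In the full windows of 300 bases, 250 before and 50 after the start, the EGR motif was matched 7 and 10 times at the starts of Dgkz (matches may overlap) and 1 or 2 times at the 4 starts of Dgka. This motif is common, with a match in 64.7% of the 32851 mouse promoters of the table, while the NFAT core was matched in 23.4%, the AP-1 motif TGANTCA in 7.81% and the forkhead motif TGTTTAC in 3.65%. RefSeq windows were at hand for 8 of the 9 genes. The NFAT core was matched before Dgka and Rnf128 only among these 8, and the AP-1 and forkhead motifs in none of their windows. The Dgka start shown has a window of 41.3% GC, while the other 3 windows of Dgka hold 60.7% to 70.7% and those of Dgkz 61.7% and 77.7%. These are matches of letters and not measured sites.

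Dgka was highest in the spleen. It stood at 222 and 316 CPM in Spleen IGRP+, 151 and 225 in Islet IGRP- and 69.5 and 143 in Islet IGRP+ libraries. Islet IGRP+ libraries lay below all others, while Islet IGRP- and spleen libraries overlapped. The log2 change from Spleen IGRP+ to Islet IGRP+ was -1.27 ± 0.31 SE (edgeR adjusted p = 0.0307), and this call was lost without Round 1 of Islet IGRP+ (0.0881), without either spleen library (0.0855 and 0.137), with 2000 genes as the limit per cell in both tissues (0.0656) and after thinning to 1000 UMIs (0.0501). Between the islet groups the change was -0.85 ± 0.30 (edgeR adjusted p = 0.236, or 0.000447 with the round as a block), and between Islet IGRP- and Spleen IGRP+ it was -0.41 ± 0.30 (edgeR adjusted p = 0.369, or 0.0132 with the block). Thinned shares were 19.6% and 25.2% in the spleen, 14.3% and 20.6% in Islet IGRP- and 7.13% and 14.1% in Islet IGRP+ cells.

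Dgkz did not separate the groups. It stood at 74.2 and 118 CPM in Islet IGRP-, 67.3 and 134 in Islet IGRP+ and 71.4 and 152 in Spleen IGRP+ libraries. The log2 changes were 0.04, -0.04 and -0.09, each with a standard error of 0.38 (edgeR adjusted p = 0.964, 0.946 and 0.896), and all groups overlapped. Round 2 lay above Round 1 in each group.

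Itpkb (plus strand, chr1:180330485-180424802) was highest in Islet IGRP- libraries, at 196 and 303 CPM, followed by 109 and 225 CPM in Islet IGRP+ and 117 and 164 CPM in Spleen IGRP+ libraries. Both Islet IGRP- libraries lay above both spleen libraries, and Islet IGRP+ overlapped each of the other groups. From Spleen IGRP+ to Islet IGRP- the log2 change was 0.93 ± 0.31 SE, which missed the threshold (edgeR adjusted p = 0.0831). It passed with the round as a block (8.41e-05), after thinning to 1000 UMIs (edgeR adjusted p = 0.0458) and in the Wald test of DESeq2 (0.0291), among other alternatives. From Islet IGRP- to Islet IGRP+ it was -0.61 ± 0.31 (edgeR adjusted p = 0.362, or 0.00384 with the block). Thinned shares, which follow the level, were 18.1% and 26.2% in Islet IGRP-, 13.6% and 23.2% in Islet IGRP+ and 10.5% and 15.0% in Spleen IGRP+ cells.

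Izumo1r encodes folate receptor 4 and lies on the minus strand at chr9:14885814-14903949. It stood at 52.0 and 54.1 CPM in Islet IGRP-, 43.0 and 52.5 in Islet IGRP+ and only 4.68 and 3.47 in Spleen IGRP+ libraries. Both islet groups lay far above the spleen and overlapped each other.

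Against Spleen IGRP+ cells, Izumo1r was 12.2-fold higher in Islet IGRP+ (log2 change 3.60 ± 0.25 SE, edgeR adjusted p = 0.00147) and 13.6-fold higher in Islet IGRP- cells (3.76 ± 0.25, edgeR adjusted p = 0.00264). Without any 1 library the log2 changes were 3.31 to 3.98 and 3.47 to 4.13, and each passed. Between the islet groups the change was -0.16 ± 0.21 (edgeR adjusted p = 0.725). The transcript was found in few cells of the islets, 4.10% and 4.43% of thinned Islet IGRP- cells and 3.74% and 4.95% of Islet IGRP+ cells, against 0.348% (exact interval 0.180 to 0.606) and 0.379% (0.174 to 0.719) in the spleen. Without thinning, 12.6% to 16.5% of islet cells and 0.988% to 1.02% of spleen cells had a UMI. Cells with an Izumo1r UMI were CD8 T cells by their own transcripts, since 91.7% to 100% of them in each library had a UMI of Cd8a or Cd8b1 (86.6% to 97.2% of all kept cells). A UMI of Cd4 or Foxp3 was found in 18 of 2549 of them and in 60 of all 24117 kept cells, so it was rare in both but relatively more frequent in Izumo1r cells. Of the 18, 15 were in Round 2 of Islet IGRP-, among 1241 Izumo1r cells there, against 36 of all 8932 kept cells of that library. Such a UMI was found in 46 of 13543 cells with Cblb, 25 of 7146 with Dgkz and 6 of 3057 with Dtx1. These counts were not thinned, only 36 and 24 of the Izumo1r cells were from the spleen, and the part of depth and tissue was not tested.

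Nt5e encodes CD73, which makes adenosine from AMP, and lies on the plus strand at chr9:88327197-88372092. It stood at 15.9 and 18.3 CPM in Islet IGRP-, 7.99 and 17.0 in Islet IGRP+ and 16.4 and 23.7 in Spleen IGRP+ libraries. All groups overlapped, and the islets did not exceed the spleen as they did for Izumo1r. The log2 change from Spleen IGRP+ to Islet IGRP+ was -0.59 ± 0.29 SE (edgeR adjusted p = 0.186, or 0.0180 with the round as a block), and it passed without Round 2 of Islet IGRP+ as well (0.0451). The other comparisons gave -0.47 and -0.12 (edgeR adjusted p = 0.430 and 0.806).

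At 1000 UMIs per cell, 1.44% to 6.61% of the cells of a library had a UMI of 3 or more of these genes. Many transcripts are missed at this depth, since without thinning Cblb alone had a UMI in 62.8% and 69.7% of Islet IGRP- cells. After thinning, the mean number of the 9 genes with a UMI was 0.785 and 1.01 in Islet IGRP- cells, 0.588 and 0.935 in Islet IGRP+ cells and 0.589 and 0.834 in Spleen IGRP+ cells, and no cell had more than 5. Coexpression was measured as the number of cells with both genes divided by the number that the product of their shares would give. Of 31 pairs with a ratio in at least 4 libraries, 25 had a median ratio between 0.8 and 1.25. The 6 pairs among the 4 abundant genes Cblb, Itpkb, Dgka and Dgkz had median ratios of 0.97 to 1.07. Cells with Cblb, Itpkb and Dgka all together numbered 53 and 176 in the Islet IGRP- libraries, 1.23 and 1.27 times the product of the shares, 7 and 14 in Islet IGRP+ (2.48 and 0.885 times) and 5 and 11 in the spleen (0.822 and 1.29 times).

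Izumo1r with Nt5e, the pair that marks anergic CD4 T cells, was the exception, with the only median ratio over 1.5. In Islet IGRP- cells 8 and 15 cells had both, which is 1.84 and 2.08 times the product of the shares. In Round 2 of Islet IGRP+ 5 cells had both (ratio 4.81), and in each spleen library 1 cell did. Of Islet IGRP- cells with Nt5e, 7.55% (exact interval 3.31 to 14.3) and 9.20% (5.24 to 14.7) had Izumo1r, against 4.04% and 4.34% of cells without Nt5e. The numbers are small, and the pair was picked after the ratios were seen.

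**Figure D3:**
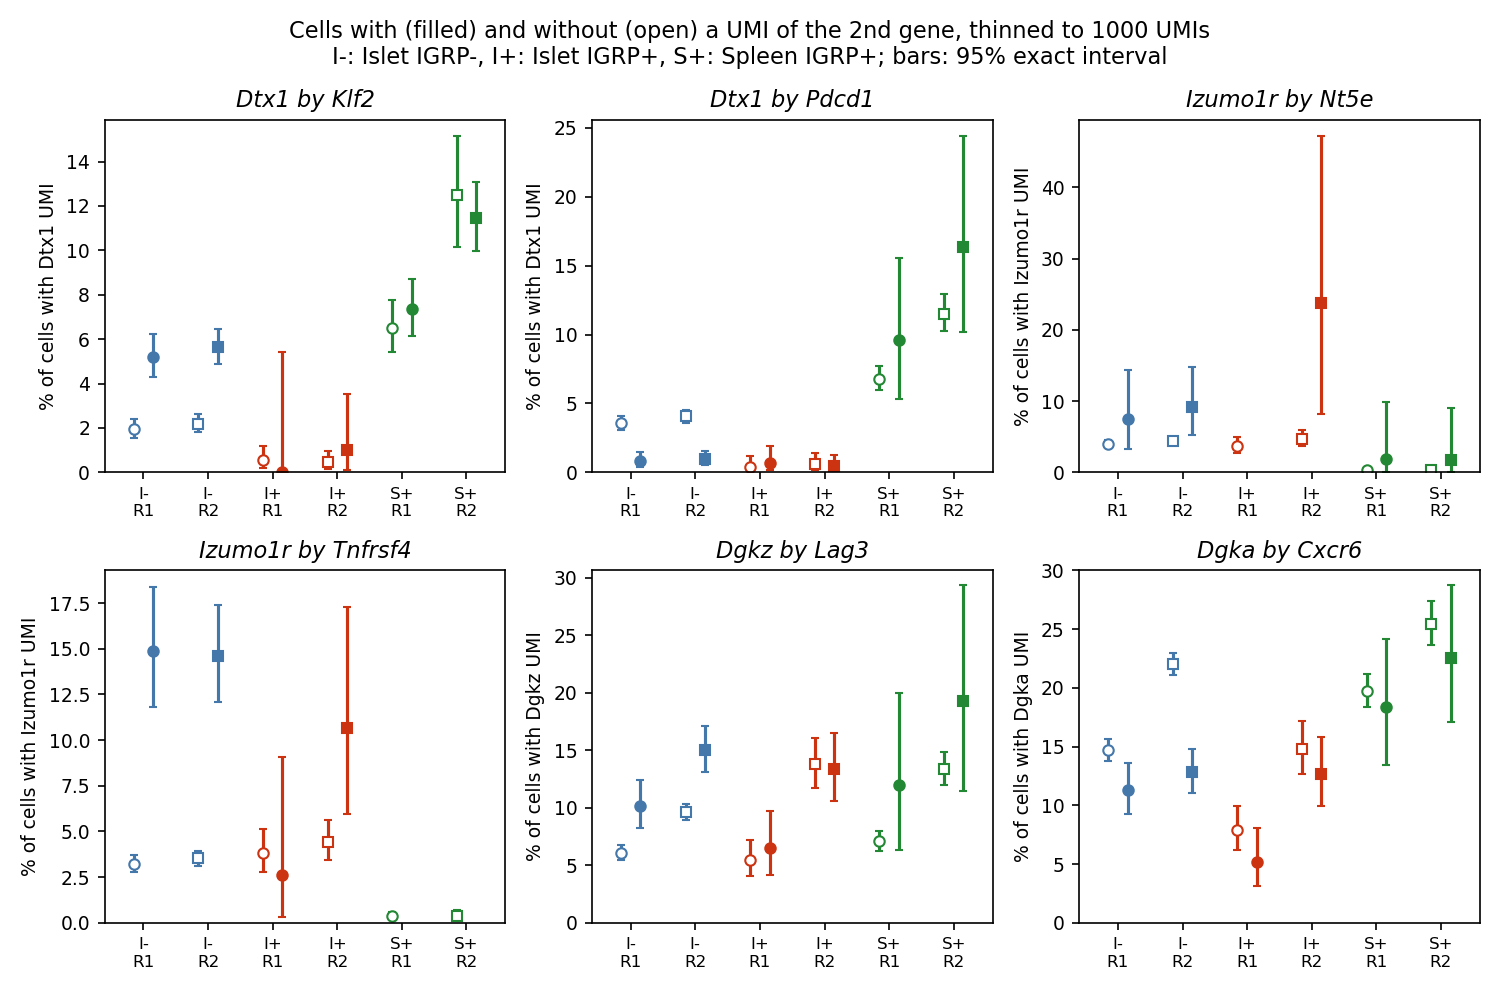
The share of thinned cells with a UMI of the first gene (y axis, percent) among cells with (filled) and without (open) a UMI of the second, by library, with exact 95% intervals; pairs with under 20 cells in a class are left out. In the Islet IGRP- libraries Dtx1 lies higher in Klf2 cells and lower in Pdcd1 cells, Izumo1r higher in Nt5e and Tnfrsf4 cells, Dgkz higher in Lag3 cells and Dgka lower in Cxcr6 cells.

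Each gene was also compared with 23 genes of T-cell state, which made 207 combinations, and those named here were picked after their values were seen. Izumo1r was most enriched among cells with Tnfrsf4, which encodes the costimulatory receptor OX40. In Islet IGRP- cells it was seen in 14.9% (exact interval 11.8 to 18.4) and 14.6% (12.1 to 17.4) of cells with a Tnfrsf4 UMI, against 3.23% and 3.53% of cells without. It was also more frequent in cells with the inhibitory receptor Ctla4 (8.22% and 8.21% against 3.13% and 3.17%) and in cells with Lag3 (8.48% and 8.48% against 3.45% and 3.75%). In Islet IGRP+ cells Izumo1r was seen in 5.22% and 4.74% of cells with Ctla4 and in 3.30% and 5.08% of cells without, so the rounds differed in direction. Nt5e shared these partners, with ratios of 2.13 and 3.39 for Tnfrsf4 and of 1.38 and 1.72 for Ctla4 in Islet IGRP- libraries. In Islet IGRP+ cells the relation of Izumo1r to Tnfrsf4 rested on 2 and 14 cells, with ratios of 0.695 and 2.16, and it was not measurable in the spleen, where only 10 and 3 thinned cells had a Tnfrsf4 UMI.

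The diacylglycerol kinases lay on opposite sides of the activation marker Tnfrsf9 in Islet IGRP- cells. Dgkz was seen in 10.2% and 15.1% of cells with Lag3, against 6.08% and 9.63% of cells without, and in 10.6% and 15.0% of cells with Tnfrsf9, which encodes the activation receptor 4-1BB, against 6.21% and 9.94%. Dgka was seen in 9.26% and 13.9% of cells with Tnfrsf9, against 14.8% and 21.3% of cells without. In Islet IGRP+ cells Dgkz was seen in 6.53% and 13.3% of cells with Lag3, against 5.47% and 13.8% of cells without. With Tnfrsf9 it was 6.20% and 14.1% against 5.66% and 13.5%, so these differences of Dgkz were small there. Dgka was seen in 4.55% and 10.8% of Islet IGRP+ cells with Tnfrsf9, against 7.80% and 15.2% of cells without. In Islet IGRP- cells with Cxcr6, a chemokine receptor of tissue-resident cells, Dgka was seen in 11.3% and 12.8%, against 14.7% and 22.0%. The ratio of Dgka to Cxcr6 was under 1 in all 6 libraries (0.621 to 0.934), and its ratio to Tcf7, a transcription factor of stem-like T cells, was over 1 in all 6 (1.04 to 2.27). For Cblb the ratios to Cxcr6 in the Islet IGRP- libraries were 0.9502 and 1.05. Itpkb was seen in 7.51% and 20.4% of Islet IGRP+ cells with Cxcr6, against 16.1% and 24.7% of cells without, and its ratios to Gzmb, which encodes the cytotoxic protease granzyme B, were 0.437 and 0.489 in the same libraries and 0.815 and 0.952 in the Islet IGRP- libraries.

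Across all expressed genes, correlations with the 4 abundant genes were weak. The highest mean correlation of thinned log counts over the 6 libraries was 0.079 for Cblb (with AY036118), 0.078 for Itpkb (with Malat1), 0.062 for Dgka (with Tmsb10) and 0.043 for Dgkz (with Gem), among 1859 genes seen in at least 5% of cells of every library. The cells of a library share its depth and composition, and values this small in sparse counts are no finding.

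T-cell receptor sequences of the same cells gave clone sizes for 13667 cells with 1 productive α and 1 productive β chain, 673 to 5483 per library. Levels were summed over cells of clones with 1 cell, 2 to 9 cells or 10 or more cells in the library, with no test. In Islet IGRP- libraries Dtx1 stood at 45.8 and 58.5 CPM in single-cell clones, 11.4 and 14.6 CPM in clones of 2 to 9 cells and 11.8 and 6.82 CPM in clones of 10 or more. Expanded clones of these libraries were thus nearer to Islet IGRP+ cells in Dtx1 than single cells were. In the spleen Dtx1 stood at 79.3 and 165 CPM in single-cell clones and at 70.3 and 125 CPM in clones of 10 or more.

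Dgka and Dgkz moved apart with clone size in Islet IGRP- cells, as they did there with Tnfrsf9. In Islet IGRP- libraries Dgka stood at 189 and 274 CPM in single-cell clones and at 115 and 141 CPM in clones of 10 or more, while Dgkz stood at 50.2 and 86.8 CPM and at 101 and 153 CPM. Izumo1r was highest in clones of 2 to 9 cells of these libraries, at 76.8 and 93.4 CPM, against 51.2 and 42.4 CPM in single-cell clones and 44.6 and 58.8 CPM in the largest. Cblb was level, at 273 and 342 CPM in single-cell clones and 280 and 331 CPM in the largest. Dgka and Dgkz had the same directions between these classes in the spleen. Dgka stood there at 252 and 399 CPM in single-cell clones and at 204 and 301 CPM in clones of 10 or more. Dgkz stood at 58.2 and 138 CPM and at 73.3 and 152 CPM, with 83.2 CPM in clones of 2 to 9 cells of Round 2. Among Islet IGRP+ cells only 12 and 14 cells were single-cell clones, too few to set beside the others.

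**Figure D4:**
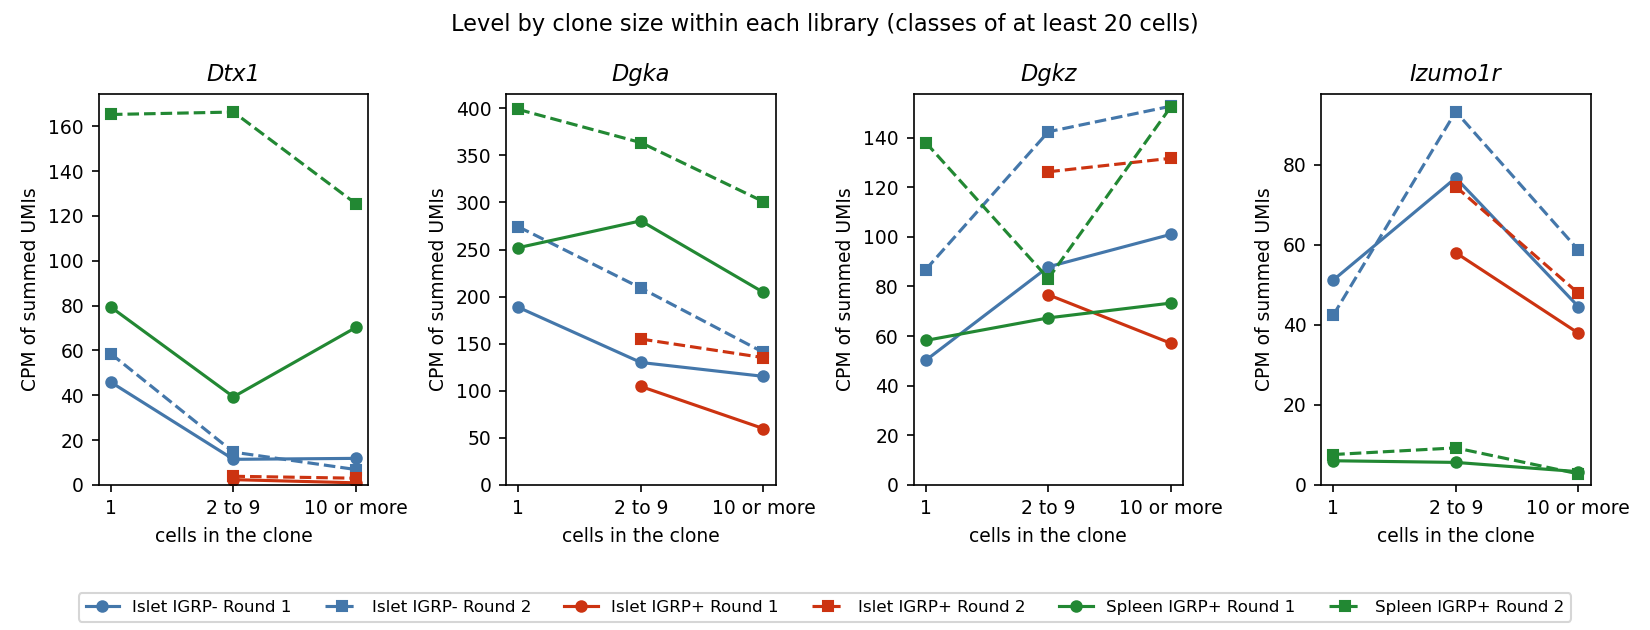
The level of Dtx1, Dgka, Dgkz and Izumo1r in CPM (y axis, from 0) by the number of cells in the clone (x axis), with solid lines for Round 1 and dashed lines for Round 2; classes under 20 cells are not drawn. In both Islet IGRP- libraries Dgka descends and Dgkz rises with clone size, Dtx1 is highest in single-cell clones (45.8 and 58.5 CPM), and Izumo1r peaks in clones of 2 to 9 cells.

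Other genes of the same pathways were followed in 5 lists of 70 genes, of which 62 were tested. Cblc, Dgkb, Folr1 and Folr2 had no UMI in any library, which allows a level of up to 0.03 CPM over the 6 libraries. In all, 3 rose and 2 fell between Islet IGRP+ and Islet IGRP- cells, 17 rose and 9 fell in Islet IGRP+ against Spleen IGRP+ cells, and 18 rose and 7 fell in Islet IGRP- against Spleen IGRP+ cells, where 1.19%, 26.6% and 22.4% of all genes passed in either direction. The median log2 change was -0.21, -0.18 and 0.15 over the lists, beside -0.01, -0.03 and 0.02 over all genes tested. With the round as a block, 33, 47 and 39 of the 62 passed in the 3 comparisons, against 30.5%, 55.1% and 55.4% of all genes. For the counts by list that follow, 0.151% of all genes were higher and 1.04% lower between the islet groups. Against Spleen IGRP+ cells these shares were 13.7% and 12.9% in Islet IGRP+ and 12.2% and 10.2% in Islet IGRP- cells.

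Among partners of CBL and NEDD4-family ligases, 1 of 15 tested genes rose and 1 fell between the islet groups. The one that rose was Ubash3b, a phosphatase that binds CBL proteins and dampens receptor signaling, with 35.8 and 34.8 CPM in Islet IGRP-, 83.7 and 97.2 in Islet IGRP+ and 70.5 and 73.7 in Spleen IGRP+ libraries (log2 change 1.35 ± 0.15 SE between the islet groups, edgeR adjusted p = 0.0259). Against Spleen IGRP+ cells it was higher in Islet IGRP+ by 0.42 on the log2 scale (edgeR adjusted p = 0.0901, or 0.00740 with the round as a block). In the spleen comparisons 2 of 15 fell in Islet IGRP+, and 1 rose (Peli1) and 3 fell in Islet IGRP- cells, among them the related Ubash3a in both (log2 change -0.63 and -0.74). The others that fell in Islet IGRP- cells were Ubash3b itself (-0.93, edgeR adjusted p = 0.0122) and Nedd4 (-0.73, edgeR adjusted p = 0.0345).

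In diacylglycerol and inositol phosphate signaling, 3 of 18 tested genes rose and 4 fell in Islet IGRP+ against Spleen IGRP+ cells, and 4 rose and 3 fell in Islet IGRP- cells. Rasgrp2, Prkcq and Rasgrp1 fell in both, and these 3 work downstream of diacylglycerol or calcium. Rasgrp2, an activator of Rap1, held 279 and 315 CPM in the spleen, 65.8 and 55.8 in Islet IGRP+ and 85.0 and 97.7 in Islet IGRP- libraries (log2 change -2.18 ± 0.21 and -1.60 ± 0.20, edgeR adjusted p = 0.00291 and 0.00680). Prkcq, which encodes protein kinase C-θ, fell by 1.76 and by 1.14 on the log2 scale, and Rasgrp1, the activator of Ras, fell by 0.91 and by 0.70. Itpr3 fell by 1.46 in Islet IGRP+ cells (edgeR adjusted p = 0.00689). The genes that rose there were Dgkg, Ipmk and Inpp4b, by 2.29, 1.09 and 0.85, also named after their values were seen. Ipmk held 7.91 and 10.6 CPM in the spleen, 17.3 and 19.0 in Islet IGRP+ and 25.0 and 26.0 in Islet IGRP- libraries. Between the islet groups 1 of 18 rose, Dgkg, at 4.51 CPM or less and named after its value was seen. With the round as a block, 1 of the 18 was higher and 10 were lower between the islet groups, and the median log2 change without the block was -0.48.

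Of 14 genes for calcineurin, NFAT and anergy-linked transcription factors, 5 rose and 3 fell in Islet IGRP+ and 5 rose and 1 fell in Islet IGRP- against Spleen IGRP+ cells. Among genes of at least 20 CPM, the NR4A factors, which NFAT induces, rose in both. Nr4a3 held 19.4 and 13.0 CPM in the spleen, 116 and 251 in Islet IGRP+ and 196 and 250.04 in Islet IGRP- libraries (log2 change 3.52 ± 0.41 and 3.84 ± 0.42, edgeR adjusted p = 0.00454 and 0.00501). Nr4a1 rose by 2.63 and 2.66 and Nr4a2 by 2.04 and 1.61 on the log2 scale, Nfatc1 rose by 1.19 and 1.30, and the calcineurin subunit gene Ppp3cc fell by 1.25 and by 0.98. Egr2, an anergy factor that binds the EGR motif, rose by 1.94 and 1.66 (edgeR adjusted p = 0.00631 and 0.0108) at a level of 10.02 CPM or less. It was seen in 0.773% and 0.770% of thinned Islet IGRP- cells, 1.19% and 1.09% of Islet IGRP+ cells and 0.290% and 0.211% of Spleen IGRP+ cells.

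Among 8 tested Notch and Deltex genes, 2 rose in Islet IGRP+ and 3 in Islet IGRP- against Spleen IGRP+ cells. Rbpj, the DNA-binding partner of Notch, rose by 2.57 and 2.08 on the log2 scale, from 14.8 and 21.7 CPM in the spleen to 89.6 and 112 in Islet IGRP+ and 72.3 and 69.1 in Islet IGRP- libraries. Notch1 rose by 0.61 in Islet IGRP- and Dtx3 by 0.67 in Islet IGRP+ cells. Dtx1 thus fell against the spleen where these called genes rose, but 6 and 5 of the 8 were not called. The median log2 change of the 8 was -0.02 and 0.48. Between the islet groups 0 of the 8 rose and 1 fell, with a median of -0.42. With the round as a block 1 rose and 5 fell there, where 30.5% of all genes passed in either direction. Of 7 tested genes around adenosine and other surface inhibitors, 7 rose in Islet IGRP+ and 5 in Islet IGRP- against Spleen IGRP+ cells. Of all genes, 13.7% and 12.2% rose. The largest of these rises was that of Lag3 (log2 change 3.77 and 2.71). The list, Lag3 included, was chosen with earlier results of these data known, so the count is no independent evidence. Entpd1, which encodes CD39 and makes the AMP that CD73 uses, held 29.4 and 33.9 CPM in Islet IGRP-, 73.6 and 104 in Islet IGRP+ and 18.3 and 21.7 in Spleen IGRP+ libraries, and rose by 1.48 ± 0.15 between the islet groups (edgeR adjusted p = 0.0231). Its level was thus higher in Islet IGRP+ cells while that of Nt5e was not. Adora2a, an adenosine receptor gene, rose by 1.14 in Islet IGRP+ and 1.02 in Islet IGRP- cells against the spleen.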

How the data were processed

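The authors prepared 10x 5′ libraries and counted UMIs with Cell Ranger (version 5.0.1 per the file headers) against mm10, and deposited raw counts. Cells with under 5% mitochondrial UMIs and 200 to 3500 (islet) or 200 to 2000 (spleen) genes were kept. UMIs were summed per library and tested with edgeR 4.0.16 (TMM, filterByExpr, quasi-likelihood F-test, 6 libraries in 1 fit, Benjamini-Hochberg) in R 4.3.3, with DESeq2 1.42.0 as an alternative. Libraries of a round came from 1 pool of mice, and their deviations from the group means correlated across genes (r = 0.630 to 0.717), so the round pairs them. In simulated data for Islet IGRP+ against Islet IGRP- (11277 genes), a log2 change of 2 was recovered for 74.5% and one of 1 for 0% of 200 changed genes, with 20 and 0 false calls. Results for 1 state gene are not reported here. Doublets were not called and free RNA was not subtracted. Clones came from the deposited receptor contigs. Positions are from GENCODE M21, upstream sequences from RefSeq. Named pathway genes were those called with at least 20 CPM in the higher group, at most 4 per list and comparison by size of change. The 9 genes and all lists were chosen with earlier results of these data known. Python 3.11.15 was used for the rest.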

Additional observations from a re-analysis of the deposited data

Results flagged for a closer look

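The ratio of Dtx1 with Pdcd1 lay on different sides of 1 in 2 groups. The number of thinned cells with both, divided by the number that the product of their shares gives, was 0.270 and 0.268 in the Islet IGRP- libraries and 1.38 and 1.39 in the Spleen IGRP+ libraries. It stood out because both libraries of one group lay below 1 and both of the other above it, and the difference was not tested. In the spleen, where 14 and 19 cells had both, the exact intervals of the Dtx1 share in cells with and without Pdcd1 overlapped. With cells thinned to 2000 UMIs the mean of the 2 Islet IGRP- ratios was 0.348.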

How the results depend on the processing

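No log2 change that passed in the main setting turned its direction. Of the 9 genes, 3, 5 and 5 passed with the round as a block (1, 4 and 3 without it). Between the islet groups 0 passed among cells with a Pdcd1 UMI, a setting chosen after seeing the data, and 0 to 1 when 1 library was left out; of all genes 0% passed among Pdcd1 cells and 0% to 0.261% without 1 library. Leaving out 1 library gave 3 to 5 for Islet IGRP+ and 2 to 4 for Islet IGRP- against Spleen IGRP+, with the lone library of a group assumed to vary like the others. Of the 5 pathway genes called between the islet groups, the count became 33 with the block, 9 without a filter on low counts and with DESeq2, 8 with a limit of 2000 genes, 3 in Cd8a or Cd8b1 positive cells and after thinning, and 0 with only 4 libraries, among cells with Pdcd1 and without any 1 library. Against Spleen IGRP+, the 26 called in Islet IGRP+ became 47 with the block, 17 among Pdcd1 cells and 12 to 23 without 1 library, and the 25 in Islet IGRP- became 39, 16 and 6 to 22. The ratio of the Islet IGRP+ to the Spleen IGRP+ share moved at 2000 UMIs from 3.08 to 2.41 for Cblb and from 0.0587 to 0.0346 for Dtx1, and without thinning from 11.9 to 15.5 for Izumo1r and from 0.461 to 0.710 for Dgka. That of Dtx1 between the islet groups moved from 0.156 to 0.0916 and 0.1204. Of 18 pair ratios, 9 moved at 2000 UMIs and 0 reversed. The causes were not tested. An exact permutation test of 2 libraries against 2 cannot go below p = 0.333, and Rnf128 and Dtx1 in Islet IGRP+ rest on few UMIs.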
